A study of Homo sapiens with 2 samples.

Results

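A set of 88 nuclear gene records named as subunits of the mitochondrial respiratory chain was examined for peaks of a TCF4 antibody in CAL-27 cells. They were chosen by symbol among the 20037 protein-coding RefSeq genes on nuclear chromosomes: NDUFA, NDUFB, NDUFC, NDUFS and NDUFV genes, SDHA to SDHD, UQCR genes, COX4 to COX8 genes and ATP5 genes, without the NDUFAF assembly factors. Complex I had 38 members, complex II 4, complex III 9, complex IV 17 and complex V 20. Symbols also took in readthrough and copy records (84 members remain without them), the inhibitor ATP5IF1 and the supercomplex factor COX7A2L. The subunit genes CYC1 and COXFA4 fell outside the symbol rule. A gene was counted as having a peak at an end when a peak's summit lay within 1 kb of either end of its record, and as having a peak inside when a summit lay within the record and farther from both ends. CAL-27 is an established line of squamous carcinoma of the tongue, and it was grown here as spheres, a culture without attachment that is used to enrich for cells with stem-like properties. The study made 1 library with an antibody to TCF4 and 1 with IgG, each labelled as a first replicate; values of the IgG one are not used here. The labels give no other treatment and do not say whether TCF4 means the T-cell factor of the Wnt pathway (gene TCF7L2) or the E protein (gene TCF4). With a single library there was no spread between replicates, so every comparison below is a description without a test, and intervals cover counting error only.

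The respiratory chain sits in the inner mitochondrial membrane. Complexes I and II take electrons from NADH and succinate, complex III passes them to cytochrome c, complex IV hands them to oxygen, and complex V, the ATP synthase, uses the resulting proton gradient to make ATP. Most subunits are made from nuclear genes and imported, while a small core of complexes I, III, IV and V is encoded by mitochondrial DNA. The promoters of many of the nuclear genes are known to carry sites for nuclear respiratory factor 1 (NRF1), for the ETS family factor GABP and for YY1, factors associated with shared control of mitochondrial genes.

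Promoters of 6 members are shown because they cover all 5 complexes and the range from a strong peak to none. Each run is the 250 bases before the start of the record in RefSeq, build GRCh38.p14, written from 5′ to 3′ on the gene's own strand. Capitals mark matches to any of 9 motifs on either strand, which are spelled out with the motif counts further on. The runs lie at chr18:9102449-9102698 (plus strand, NDUFV2), chr5:218070-218319 (plus, SDHA), chr3:48609647-48609896 (minus, UQCRC1), chr11:63974370-63974619 (plus, COX8A), chr17:48892537-48892786 (plus, ATP5MC1) and chr11:112086623-112086872 (plus, SDHD).
NDUFV2: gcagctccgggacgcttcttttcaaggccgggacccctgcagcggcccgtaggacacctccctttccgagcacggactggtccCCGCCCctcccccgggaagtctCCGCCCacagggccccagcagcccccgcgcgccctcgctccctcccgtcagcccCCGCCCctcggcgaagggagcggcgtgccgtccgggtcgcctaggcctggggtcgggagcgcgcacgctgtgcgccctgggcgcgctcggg
SDHA: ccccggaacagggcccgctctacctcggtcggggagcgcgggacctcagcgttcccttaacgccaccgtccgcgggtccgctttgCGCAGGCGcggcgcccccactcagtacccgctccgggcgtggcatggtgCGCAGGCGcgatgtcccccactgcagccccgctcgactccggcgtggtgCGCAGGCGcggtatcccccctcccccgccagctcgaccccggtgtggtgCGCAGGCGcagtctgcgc
UQCRC1: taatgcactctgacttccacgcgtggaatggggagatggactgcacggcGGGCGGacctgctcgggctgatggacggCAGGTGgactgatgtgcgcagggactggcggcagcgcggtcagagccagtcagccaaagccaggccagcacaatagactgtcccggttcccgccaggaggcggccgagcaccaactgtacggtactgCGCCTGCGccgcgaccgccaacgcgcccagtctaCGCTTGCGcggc
COX8A: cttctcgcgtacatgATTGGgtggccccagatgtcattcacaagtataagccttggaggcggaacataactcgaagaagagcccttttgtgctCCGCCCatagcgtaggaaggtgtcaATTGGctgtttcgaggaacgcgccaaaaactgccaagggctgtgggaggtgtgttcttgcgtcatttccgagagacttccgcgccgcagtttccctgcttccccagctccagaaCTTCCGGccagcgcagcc
ATP5MC1: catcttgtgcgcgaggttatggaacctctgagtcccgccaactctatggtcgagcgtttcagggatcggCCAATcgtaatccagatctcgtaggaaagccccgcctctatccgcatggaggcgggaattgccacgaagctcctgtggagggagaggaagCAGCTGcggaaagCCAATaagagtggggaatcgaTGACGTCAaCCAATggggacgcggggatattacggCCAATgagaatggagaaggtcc
SDHD: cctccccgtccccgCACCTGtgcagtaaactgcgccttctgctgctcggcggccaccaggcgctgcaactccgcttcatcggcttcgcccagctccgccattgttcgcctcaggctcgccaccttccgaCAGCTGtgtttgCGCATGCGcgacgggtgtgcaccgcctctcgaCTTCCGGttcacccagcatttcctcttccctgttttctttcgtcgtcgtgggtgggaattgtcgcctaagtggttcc
In NDUFV2, the peak summit lay 46 bp before the start, and the capitals are 3 GC boxes, 167 to 86 bases before it. The SDHA promoter held 4 copies of the NRF1 motif, between 165 and 11 bases before the start, and its summit lay 62 bp before the start, near the third copy. UQCRC1 had its summit 16 bp before the start, between NRF1 matches at 46 to 39 and 12 to 5 bases. COX8A had CCAAT boxes, a GC box and an ETS match beginning 18 bases before the start, with the summit at 165 bp. In ATP5MC1 the run holds 4 CCAAT boxes, an E-box and a CREB match, and the summit lay 260 bp before the start, just outside it. SDHD carried NRF1, ETS and E-box matches and no summit within 130381 bp of either end. A match is a description of letters and not a binding site.

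Peaks at the ends of respiratory chain genes were somewhat more frequent than at protein-coding genes at large, by a margin that counting error could span. Of the 88 members, 45 had a summit at an end, 51.1% (95% Wilson interval 40.9 to 61.3), against a background of 41.2% over all protein-coding genes. The background lies just inside that interval, and 1 gene is worth 1.14 percentage points. Another 7 members had summits inside alone (7.95%), against a background of 13.4%. Members were shorter, with a median record of 9589 bp against 24115 bp for all protein-coding genes, so they offered less interior for a summit to fall in; the part of length in this count was not tested. Counting either place, 52 members had a summit (59.1%), against 54.6%, and 36 had none. Summits within 500 bp of an end were found at 39 members, against a background of 36.4%, and within 2000 bp at 46, against 45.4%. Any overlap of a peak with the 1 kb window gave 45 members again, against 41.8%. Members also lay among more neighbours, with a median of 4 other protein-coding genes within 100 kb against 2 for all protein-coding genes.

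The peaks themselves were of middling size. An end peak with −log10 q of at least 5 was present at 33 members (37.5%), against a background of 27.1%, and of at least 10 at 14 members (15.9%), against 14.1%. One of at least 20 fragments was present at 11 members (12.5%), against 11%. The strongest end peak of the 45 members had a median fold enrichment of 7.45, with a range of 3.97 to 14.8, against a median of 6.38 over the 8248 protein-coding genes with an end peak. Fold enrichment is the peak caller's fragment pileup at the summit over the local background it estimated. The pileup came to a median of 14 fragments per member, from 7 to 68, against 13 for all such genes. Background fragments had a median of 0.869 at members and 1.06 at all such genes, and peak width a median of 286 bp against 278 bp. In 14 members (31.1% of the 45) the end peak rested on 10 fragments or fewer. That share was not counted over all protein-coding genes. The median over all 26642 peaks, at ends or elsewhere, was 10 fragments. A peak of 7 fragments has an exact Poisson interval of 2.81 to 14.4 fragments, so the order of such members is not resolved at this depth. The 8248 protein-coding genes with an end peak were ranked by fold. Of the 45 members, 8 were in the first 1000 and 14 (31.1%) in the upper 25%. Among those 8, NDUFA11, NDUFB11 and ATP5MK had summits nearer to another gene's end than to their own. The summits of NDUFA6, NDUFV2, UQCRC1, ATP5F1B and ATP5MC1 had no other protein-coding gene's end within 1 kb.

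**Figure D1:**
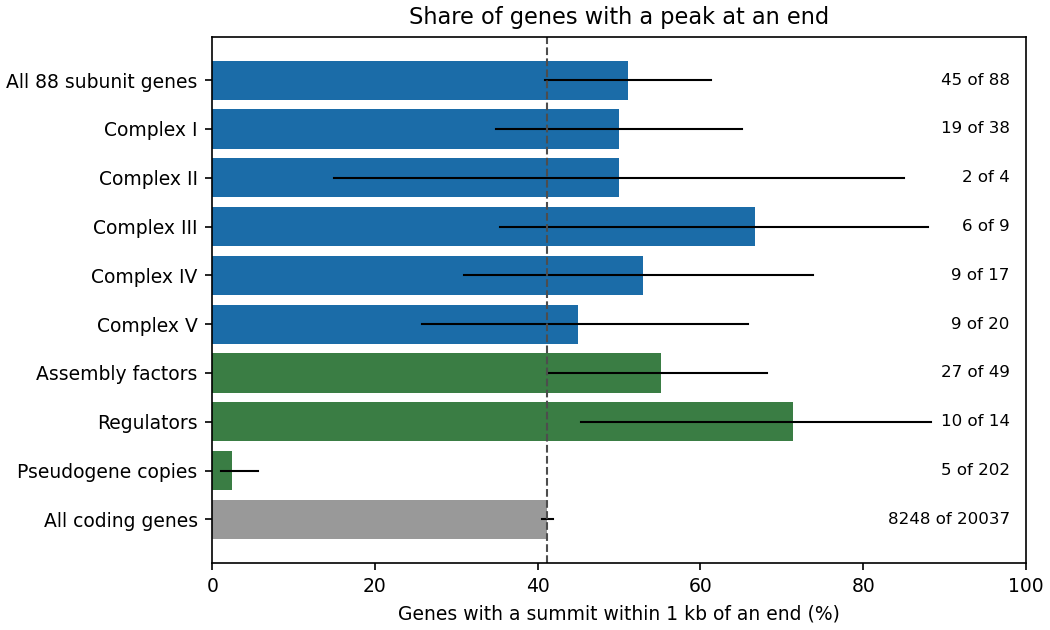
Percent of genes with a summit within 1 kb of an end (horizontal axis) for the 5 complexes and for related gene lists, with 95% Wilson intervals as bars and the value for all protein-coding genes as a line. The complexes run from 45% for complex V to 66.7% for complex III, and the intervals of complexes I to V all include 41.2%.

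All 5 complexes had members with a peak and members without, and their shares could not be told apart at these sizes. Complex I had an end peak at 19 of 38 genes (50%, Wilson interval 34.8 to 65.2) and complex II at 2 of 4 (50%, 15.0 to 85.0). In complex III it was 6 of 9 (66.7%, 35.4 to 87.9). Complexes IV and V had 9 of 17 (52.9%, 31.0 to 73.8) and 9 of 20 (45%, 25.8 to 65.8). The median fold of the members with a peak was 5.98 in complex I, 8.65 in complex II, 7.26 in complex III, 6.10 in complex IV and 8.13 in complex V. Moving 1 gene shifts the share by 2.63 points in complex I, 25 in complex II, 11.1 in complex III, 5.88 in complex IV and 5 in complex V.

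**Figure D2:**
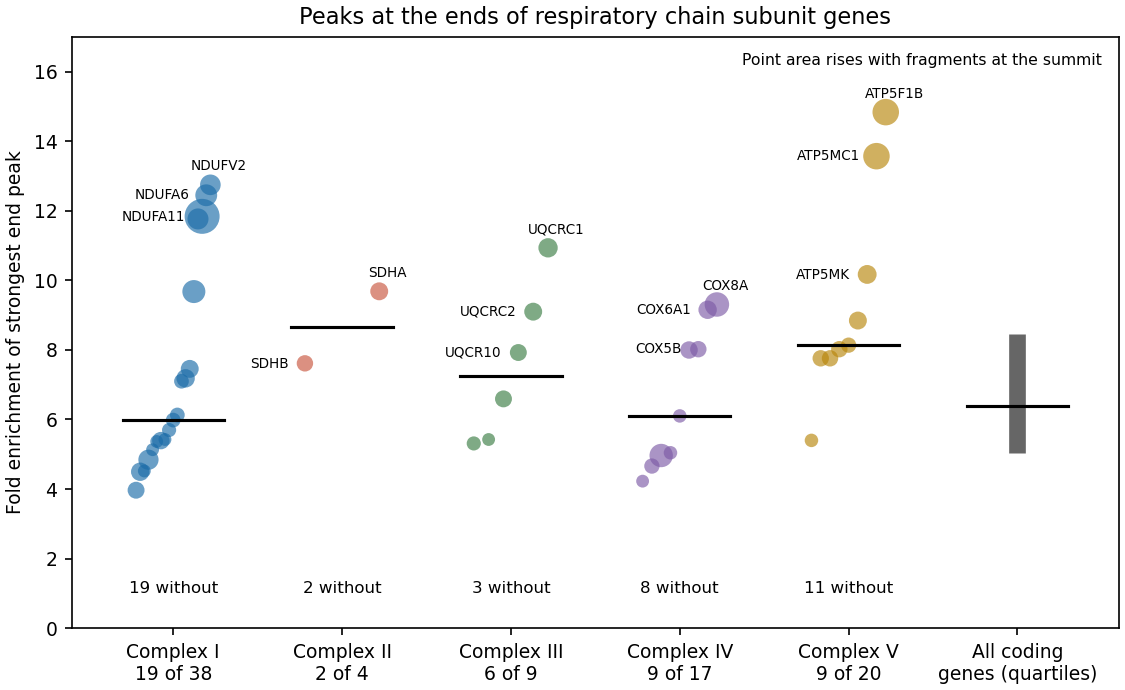
Fold enrichment of the strongest end peak (vertical axis) for each member with one, by complex, with point area rising with fragments at the summit, horizontal lines at the medians and, at the right, the quartiles of all protein-coding genes with an end peak. ATP5F1B at 14.8 and ATP5MC1 at 13.6 are the highest points, and the largest point is NDUFA11, with 68 fragments.

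Complex I oxidises NADH in its N module, passes electrons to ubiquinone in its Q module and pumps protons through its membrane arm. Of the 8 genes of the N module, 4 had an end peak (50%, Wilson interval 21.5 to 78.5), against 41.2% of all protein-coding genes. All 3 NDUFV genes were among them. NDUFV2, an iron-sulfur subunit, had a fold of 12.7 on 22 fragments (exact interval 13.8 to 33.3), with its summit 46 bp before the start, and ranked 317 among end peaks. NDUFV3 had 9.68 on 28 fragments, 48 bp before its start, where WDR4 begins 263 bp from the same summit. The peak of NDUFV1, which binds FMN and NADH, was lower, with a fold of 5.39 on 15 fragments. NDUFA2 had 4.52 on 7 fragments, and NDUFS1, NDUFS4, NDUFS6 and NDUFA12 had no end peak.

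In the Q module, 3 of 5 genes had an end peak (60%, Wilson interval 23.1 to 88.2), against 41.2% of all protein-coding genes. None of these peaks stood high. NDUFS3, a core subunit, had a fold of 6.13 on 10 fragments, 21 bp before its start. NDUFS8, an iron-sulfur subunit, had 4.84 on 21 fragments, but that summit lay 959 bp before its start and 446 bp from ALDH3B1. NDUFS7, which holds the last iron-sulfur cluster before ubiquinone, had its peak at the finish of the record, 987 bp inside from that end, with a fold of 4.50 on 17 fragments. NDUFA5 had no summit within the window.

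The strongest complex I peaks outside these modules were at accessory subunits. NDUFA6, an accessory subunit of the LYR protein family, had a fold of 12.4 on 25 fragments, 74 bp before its start. NDUFA11, a membrane arm subunit, had 11.8 on 68 fragments (exact interval 52.8 to 86.2), the deepest summit of any member, with −log10 q of 47.8. That summit lay 651 bp before the NDUFA11 start and nearer, at 431 bp, to an end of VMAC. NDUFB11, an X-linked membrane arm subunit, had 11.8 on 23 fragments, 331 bp after its start and 61 bp from RBM10. Both of these large values therefore sat closer to another gene's end than to the member's.

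The other 9 complex I genes with an end peak were lower. NDUFB7 had a fold of 7.45, NDUFA7 7.18, NDUFA8 5.98 and NDUFA3 5.70. NDUFB3 lay between NDUFA7 and NDUFA8, on 10 fragments, and NDUFB4 (5.42), NDUFS5 (5.37), NDUFA10 (5.13) and NDUFB10 (3.97, the lowest of all 45) completed the set. NDUFA7 had summits at both ends, and the stronger lay at its finish, 156 bp from CD320. NDUFA10, the longest of these 9 at 132901 bp, had 1 end summit on 7 fragments and 5 more inside, with folds of 3.55 to 5.12. No NDUFC gene had an end peak: NDUFC2 and its readthrough record NDUFC2-KCTD14 shared a summit inside (5.20 on 8 fragments), and NDUFC1 had none. The remaining complex I genes without any summit were NDUFA1, NDUFA9, NDUFA13, NDUFAB1, NDUFB1, NDUFB2, NDUFB5, NDUFB6, NDUFB8 and NDUFB9.

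Complex II, succinate dehydrogenase, is also an enzyme of the citric acid cycle and has no subunit encoded in mitochondria. Its peaks split by position in the complex, with both catalytic subunits peaked and both membrane anchors without. SDHA, the flavoprotein, had a fold of 9.68 on 16 fragments (exact interval 9.15 to 26.0) at its start, 105 bp from CCDC127. A second SDHA summit lay inside, 1947 bp from the far end, at 4.80. SDHB, the iron-sulfur subunit, had 7.61 on 13 fragments, 69 bp before its start. SDHC had its nearest summit 8854 bp away and SDHD 130381 bp away. With 4 genes, this split is a list of what was observed and not a pattern that can be weighed.

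In complex III, 4 of the 6 genes with an end peak carried more than 1 end summit. Over all members with an end peak it was 6 of 45, against 1725 of 8248 protein-coding genes with one. UQCRC1, a core subunit, had 3: a fold of 10.9 on 19 fragments at the start, and 5.70 on 28 and 3.27 on 16 at the finish, where the background was above 4 fragments. UQCRC2, the other core subunit, had 9.10 on 16 fragments, 255 bp before its start. The small subunits UQCR10, UQCRH and UQCRQ had 2 end summits each, and their stronger ones reached 7.92, 6.59 and 5.31. All 3 of those summits were also within 1 kb of a neighbour, namely ZMAT5 at 59 bp, LRRC41 at 31 bp and GDF9 at 129 bp. UQCRB had 5.42 on 7 fragments. UQCRFS1, the Rieske iron-sulfur protein, UQCR11 and UQCRHL had no summit.

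Among the ubiquitously used subunits of complex IV, COX8A had the highest value, a fold of 9.30 on 32 fragments with −log10 q of 20.2. COX6A1 had 9.15 on 17 fragments at its start and a second summit of 6.69 at its finish. COX5B had 8.02 on 13 fragments, 106 bp before its start, and COX5A was close to it on 15 fragments, 31 bp before its own. COX4I1, a large subunit linked to regulation by ATP, had 4.23 on 7 fragments, the lowest of the complex. COX7A2 and COX7A2L, a factor of respiratory supercomplexes, had summits inside alone, at 6.10 and 7.59. COX6B1, COX6C, COX7B and COX7C had none.

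Complex IV also has isoforms made mainly in certain tissues. Of 6 such genes, 4 had an end peak (66.7%, Wilson interval 30.0 to 90.3), against 3 of their 6 partners (50%, 18.8 to 81.2). Both intervals include the 41.2% of all protein-coding genes. The isoform values were 5.04 on 8 fragments for COX6A2 (heart and skeletal muscle), 4.96 on 29 for COX6B2 (testis), 4.66 on 11 for COX7A1 (heart and skeletal muscle) and 6.10 on 8 for COX8C (testis). All 4 were below COX6A1 and COX8A and above COX4I1, the 3 partners with a peak. COX4I2 (lung) and COX7B2 (testis) had none. The COX6B2 and COX7A1 summits lay 638 and 727 bp from the member's end, and that of COX7A1 was nearer, at 158 bp, to CAPNS1. The subunit now named COXFA4, once NDUFA4, is outside the symbol rule and had 7.59 on 15 fragments.

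Complex V held the highest folds of all members. ATP5F1B, the catalytic beta subunit of the F1 head, had 14.8 on 38 fragments (exact interval 26.9 to 52.2), 199 bp from the high-coordinate end of its record, and ranked 117 of 8248. Its −log10 q was 33.8, and no other protein-coding gene end lay within 1 kb of the summit. ATP5MC1, 1 of 3 genes that encode the identical c subunit of the membrane ring, had 13.6 on 38 fragments and ranked 225. The other c subunit genes differed from it: ATP5MC2 had a summit inside, 5335 bp from an end (9.62 on 20 fragments), and ATP5MC3 none within 7818 bp. Of the 5 ATP5F1 genes, 2 had an end peak (40%, Wilson interval 11.8 to 76.9), against 41.2% of all protein-coding genes. ATP5F1E had 7.76 on 13 fragments beside ATP5F1B, while ATP5F1A, ATP5F1C and ATP5F1D had none.

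The peripheral stalk, which holds the head still, had end peaks at 3 of 4 genes (75%, Wilson interval 30.1 to 95.4), against 41.2% of all protein-coding genes. ATP5PO had a fold of 8.13 on 11 fragments, 5 bp before its start, and ATP5PD 7.76 on 13. ATP5PF had 5.40 on 8 fragments at 722 bp after its start, and that summit lay 41 bp from GABPA, the DNA-binding subunit of GABP, which neighbours ATP5PF head to head. ATP5PB had none. ATP5MK, a small membrane subunit, had 10.2 on 18 fragments, 136 bp before its start and 15 bp from PDCD11. ATP5MJ had 8.02 on 13 fragments, and ATP5IF1, the inhibitor of the enzyme's reverse reaction, 8.84 on 16. Of 10 ATP5M genes 3 had an end peak (30%, Wilson interval 10.8 to 60.3), against the same 41.2%. ATP5ME, ATP5MF, ATP5MG and ATP5MGL had no summit, and the readthrough record ATP5MF-PTCD1 had 2 inside (3.92 and 4.79).

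Just outside the window lay NDUFS6, with a summit 1580 bp from its end at a fold of 4.81, NDUFB6 at 2262 bp and NDUFA5 at 2270 bp. Of the 43 members without an end summit, 20 had their nearest summit within 10 kb, and the median distance was 18659 bp.

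Many of the member peaks were not private to the member. In 19 of the 45 (42.2%), the strongest end summit also lay within 1 kb of another protein-coding gene's end, against 30.8% over all protein-coding genes with an end peak. In 11 of the 19 the neighbour's end was nearer and in 8 the member's own was. Of all 2538 protein-coding genes with a shared strongest summit, the neighbour's end was nearer in 1208 and the gene's own in 1227. Members whose strongest peak was unshared numbered 26 (29.5% of 88), against 28.5% of all protein-coding genes. Genes with a shared strongest peak stayed in the denominators of these shares, and sharing was more frequent among members. What sharing contributed to the members' share of end peaks was not tested. Fragments at a shared summit cannot be assigned to either gene.

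Strand was available for 71 members and 15843 protein-coding genes, those with an entry in the RefSeq promoter table. A peak at the start was present in 40 of the 71 members (56.3%), against 41.3%, and at the finish in 5 (7.04%), against 4.80%. In short records the same summit can count at both ends, as did the only summit of COX6A2, a record of 630 bp. A partner gene on the other strand that starts within 1 kb, the head-to-head arrangement (divergent or overlapping), was present for 22 of 71 members (31.0%), against 13.6% of all. With such a partner 13 of 22 members had a start peak (59.1%), against 68.6% of all protein-coding genes with one. Without a partner it was 27 of 49 members (55.1%), against 37.0%. Partners were found only where they too had a strand entry, so both counts of pairs are lower bounds.

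Member summits gathered just before the start. Of the 39 members whose strongest end summit was at the start, 33 had it before and 6 after (15.4% after), against 37.9% after in all protein-coding genes. The median position was 69 bp before the start, against 54 bp before, and the middle of the members' distribution ran from 148 to 23.5 bp before it. Within 100 bp of the start lay 18 member summits (46.2%), against 35.5%, and within 300 bp 33 (84.6%), against 75.1%. The 100 bp before the start alone held 43.6% of member summits, against 24.1%. The start of a record is its outermost transcript end, so distances depend on the annotated transcripts.

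**Figure D3:**
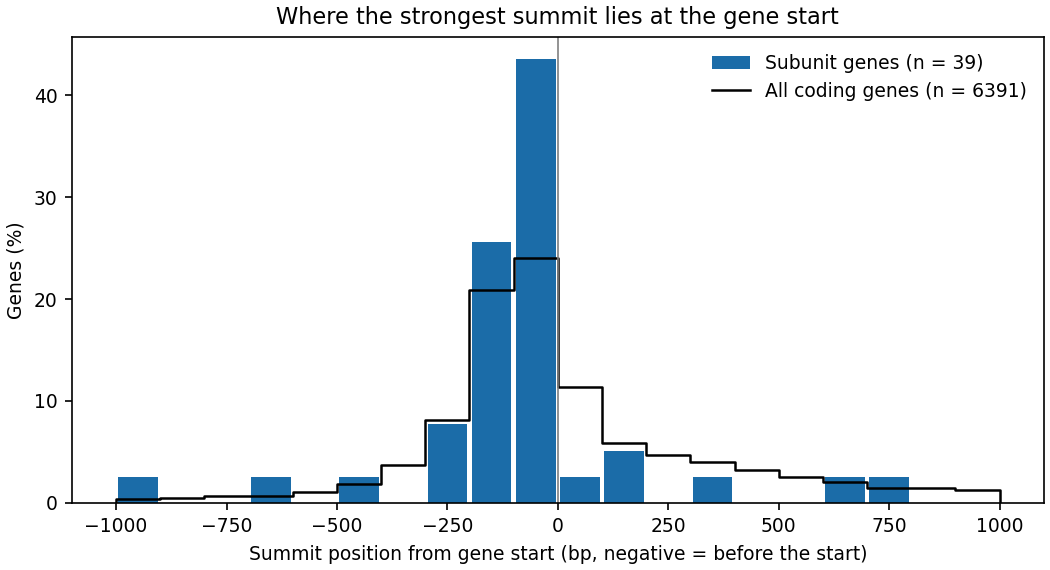
Percent of genes (vertical axis) by signed distance from record start to the strongest end summit in 100 bp bins (horizontal axis, negative before the start), for 39 members and for all protein-coding genes with such a summit. The members' highest bin is the 100 bp before the start, at 43.6% against 24.1%, and 6 members lie after the start.

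Motifs known from respiratory chain promoters were found in a larger share of members than of all protein-coding genes. Motifs were searched on both strands of the 300 bases from 250 before to 50 after the start, for the same 71 and 15843 genes. The NRF1 motif (CGCANGCG) was present in 24 members (33.8%), against 14.3% of all promoters. The ETS motif that GABP reads (CCGGAAG) was present in 20 (28.2%), against 14.2%, and the YY1 motif (AAGATGGC) in 11 (15.5%), against 3.86%. The AAG that ends the ETS motif also begins the YY1 motif, so a joined site counts for both. CREB motifs (TGACGTCA) occurred in 5 members (7.04%), against 2.56%. GC boxes (GGGCGG) were as frequent in members as elsewhere, at 59.2% against 58.3%, as were CCAAT boxes (CCAAT), at 35.2% against 36.4%. The MYC and USF motif (CACGTG) was found in 9.86% against 8.82%.

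The motifs of the proteins that may be called TCF4 were not more frequent in members. The TCF and LEF motif (CTTTGAT or CTTTGAA) was in 1 member promoter, NDUFA5 (1.41%), which had no peak, against 5.48% of all promoters. Over all promoters, start peaks were present at 25.1% of those with this motif and at 42.3% of those without. The E-box that E proteins read (CAGGTG or CAGCTG) was in 24 members (33.8%), against 33.5%. Start peaks were present at 12 of the 24 members with such an E-box (50%) and at 28 of 47 without (59.6%). For all promoters these values were 38.1% with and 43.0% without.

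Members with and without the respiratory factor motifs had start peaks at similar rates. With the NRF1 motif it was 14 of 24 (58.3%) and without it 26 of 47 (55.3%). Over all promoters the same split was 62.7% with and 37.8% without. For the ETS motif the members gave 60% with and 54.9% without, and all promoters 58.0% and 38.6%. The widest split among members for motifs held by over 10 members was at the CCAAT box, with 18 of 25 (72%) against 22 of 46 without it (47.8%), where all promoters gave 44.7% and 39.4%. These are counts of a few genes with no test behind them.

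**Figure D4:**
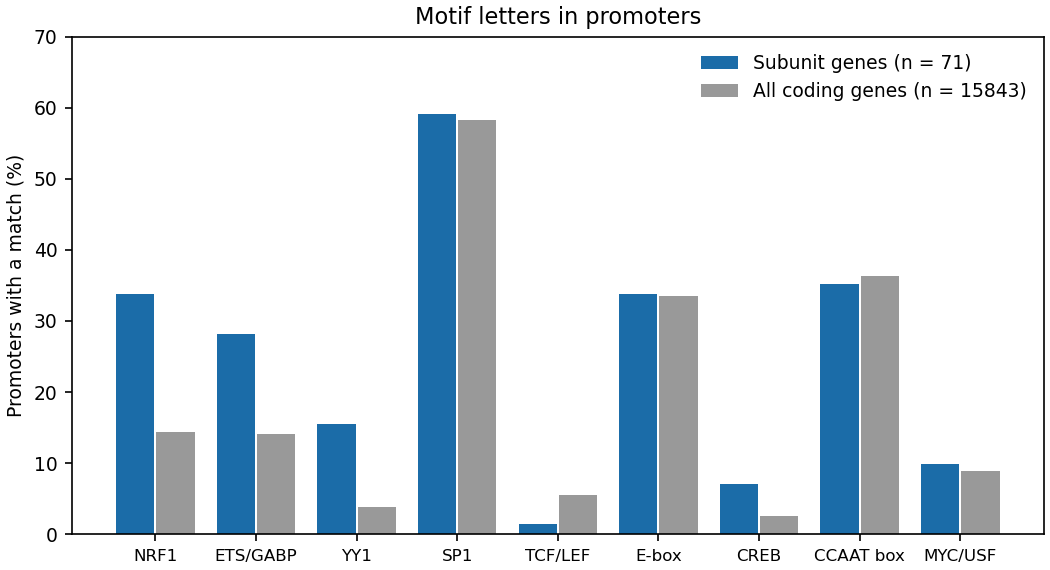
Percent of promoters (vertical axis) holding each of 9 motifs (horizontal axis) in the 300 bases around the start, for 71 members and for 15843 protein-coding genes. NRF1, ETS and YY1 motifs stand higher in members, at 33.8%, 28.2% and 15.5%, and the TCF and LEF motif lower, at 1.41% against 5.48%.

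Base composition moved with start peaks across all genes, and members did not have GC-rich promoters relative to the rest. The median GC content of member promoters was 61%, against 62.7% for all. Members with a start peak had a median of 62.5%, and those without 57%. All promoters were divided into 5 bins of about equal size by GC content, numbered from the lowest. In bin 1, 4 of 12 members had a start peak (33.3%), against 10.9% of all its genes. Bin 2 had one at 12 of 21 members (57.1%), against 33.7%, and bin 3 at 9 of 18 (50%), against 48.5%. Bin 4 gave 10 of 15 members (66.7%), against 58.3%, and bin 5 gave 5 of 5, against 55.8%. Member shares were above those of all genes in each bin, on between 5 and 21 members.

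**Figure D5:**
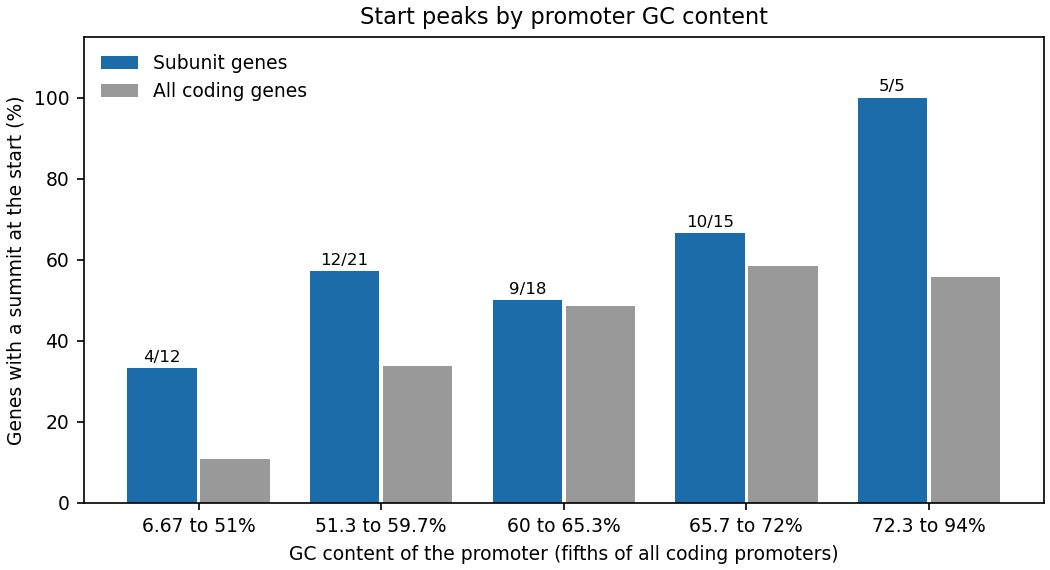
Percent of genes with a start peak (vertical axis) in 5 bins of promoter GC content (horizontal axis), for members and for all protein-coding genes. In bin 1, the lowest, members reach 33.3% against 10.9%, and in bin 3 50% against 48.5%.

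Other genes of the pathway had peaks at shares near those of the subunits. Assembly factors had an end peak at 27 of 49 genes (55.1%, Wilson interval 41.3 to 68.1), against 41.2% for all protein-coding genes. By complex this was 7 of 14 for complex I, 2 of 4 for complex II, 4 of 6 for complex III, 12 of 21 for complex IV and 2 of 4 for complex V. The list of assembly factors was chosen with earlier results of these data known, so its interval is no test of the share. CYC1, the cytochrome c1 subunit of complex III, is outside the symbol rule and not among the 49, and it had no summit. The complex IV factors COX19, which helps deliver copper, and LRPPRC, which stabilises mitochondrial mRNAs, had folds of 10.3 on 40 fragments and 9.90 on 19. Of 4 electron carriers 2 had a peak. CYCS, cytochrome c itself, had 18.0 on 74 fragments (summit 186 bp from its start), above every member, and ETFA had 4.41 on 6.

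Another list held 14 regulator genes, most but not all for factors of nuclear or mitochondrial transcription. Of these, 10 had an end peak (71.4%, Wilson interval 45.4 to 88.3), against 41.2% of all protein-coding genes. This list too was chosen with earlier results of these data known, so the interval is no test of the share. TFB1M, a mitochondrial rRNA methyltransferase, and TFB2M, a mitochondrial transcription factor, had folds of 9.24 and 9.19, each on 14 fragments. YY1 had 9.04 on 24, and the nuclear receptor gene ESRRA 7.76 on 58. TFAM, which packages mitochondrial DNA, had 6.02 on 8 fragments and NRF1 5.24 on 8. GABPA shared the ATP5PF summit at 5.40. GABPB1, MTERF1 and TWNK had no summit, and PPARGC1A, a coactivator gene, had 1 inside alone.

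Pseudogene records and the mitochondrial genome gave little. Pseudogene records named after members had an end summit in 5 of 202 (2.48%), against 3.44% of all pseudogene records. Of these 5, the COX6B1P5 summit at 11.5 on 20 fragments lay 125 bp from an end of POLN. No peak was listed on the mitochondrial chromosome, which holds 13 coding genes; the labels do not say whether it was left out before peak calling. As a look at the labelled cell type, 7 of 10 squamous markers had an end peak (70%, Wilson interval 39.7 to 89.2), against 41.2% of all protein-coding genes, and TP63, COL17A1 and DSG3 had none at an end. The background at these peaks was high, with a median of 7.71 fragments against 1.06 for all protein-coding genes with an end peak, and a peak does not measure expression.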

How the data were processed

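The data are 1 library of DNA isolated from CAL-27 spheres through a TCF4 antibody. The submitters' processing notes name Bowtie2 2.3.5.1, SAMtools, MACS2 2.2.7.1 and build hg38; the control used in peak calling and the read depth are not given in the sources used here. The authors deposited 26642 peaks with a score, a fold enrichment ratio, −log10 p and −log10 q values and a summit offset; the score was 10 times −log10 q, and −log10 q was at least 1.30. Fragments at each summit and the background were solved here from the deposited fold and −log10 p, assuming a Poisson tail and a pseudocount of 1 on both (all 26642 peaks solved within 0.0001; simulated peaks were recovered), and the lowest background was 0.475.

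Genes and promoters came from RefSeq; promoter entries (GRCh38.p14) matched 71 of 88 members. Summits were assigned in Python 3.11.15 using pandas 2.3.3 and SciPy 1.17.1, and drawn with Matplotlib 3.10.9. The members, lists and motifs were chosen with earlier results of these data known. Members are named by their state, except 1 that is not reported here; values are given for up to 6 members per complex with the highest fold and for complex II genes, inside summits, shared summits, isoforms and copies, and the remaining values were added for completeness. No test was run, because 1 library leaves no replicate error. Alternatives changed the window, the peak threshold, the ends used and the members kept.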

Additional observations from a re-analysis of the deposited data

How the results depend on the processing

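No paired analysis was possible because there was 1 TCF4 library and IgG values were not used here. The share of members with an end peak stayed within its counting interval for summits within 500 bp (44.3%) or 2000 bp (52.3%). It also did so for any overlap, start ends, and without readthrough and copy records. The same held for summits at an end or inside, an alternative chosen after seeing the data. Over the shares of members and each complex, the pseudogene copies and the median fold, 50 alternatives stayed within their interval and 23 did not. Stricter peaks lowered the share to 37.5% at −log10 q of 5 or more (background 27.1%), 15.9% at 10 or more (14.1%) and 12.5% with at least 20 fragments (11%). Complex I gave 34.2%, 13.2% and 15.8% under these 3 limits. At −log10 q of 10 or more, complexes III, IV and V gave 22.2%, 11.8% and 20%. With at least 20 fragments, complexes II to V gave 0%, 11.1%, 11.8% and 10%. Finish ends alone gave 7.04% over members, and 6.06%, 0%, 14.3%, 14.3% and 0% in complexes I to V. The complex IV value includes the COX6A2 summit, which lies nearer the start. Unshared peaks gave 29.5%, and pseudogene copies, chosen after seeing the data, 2.48%. The median fold of 7.45 (order-statistic interval 5.70 to 8.02) was 10.6 at −log10 q of 10 or more and 11.8 with at least 20 fragments, limits that by construction keep stronger peaks. Depth limits the order of members: 14 of 45 end peaks rested on 10 fragments or fewer.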
